A study of Rattus norvegicus with 8 samples.

Results

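The genes of the mitochondrial respiratory chain and the ATP synthase were followed in the rat thyroid follicular cell line FRTL-5 with and without excess iodide. Members were taken by symbol: every gene whose probe set carried a single symbol beginning with Ndufa, Ndufb, Ndufc, Ndufs, Ndufv, Sdh, Uqcr, Cox4 to Cox8 or Atp5, together with Cyc1, Cycs and the mitochondrially encoded COX2 (cytochrome c oxidase subunit II, not the prostaglandin synthase of the same nickname). This gave 92 genes of the 14217 with a single symbol on the array. They comprised 36 genes of complex I, 4 of complex II, 8 of complex III, 17 of complex IV and 16 of the ATP synthase, and 11 genes that share a prefix but are no subunits (10 Ndufaf and Sdhaf assembly factors and the pseudogene Cox6c-ps1). The grouping went by symbol. It counts the inhibitory factor Atp5if1 as an ATP synthase subunit and Ndufa4, which is found in complex IV, with complex I. Cycs, for cytochrome c, lay only on probe sets that list several genes and was not measured under this rule. Where a gene had several probe sets, the one with the highest mean signal was used.

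All cells were the SB5 sub-clone of FRTL-5, were grown with bovine TSH at 5 mU/ml and stably expressed a human TSH receptor, either the wild type (WT) or L629F, a constitutively activating mutant. The salts were 1 mM sodium iodide and, as isotonic control, 1 mM sodium chloride, given for a time that the labels leave out. With 2 arrays in each of the 4 groups there were 8 arrays, and each receptor was represented by 1 line, so the receptor and the line cannot be told apart. The labels do not say that the 2 arrays of a group came from separate cultures, so the spread behind the p-values may be technical. The human receptor was not measured on these rat arrays in a way that checks the labels.

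Complexes I to IV pass electrons from NADH and succinate to oxygen. Complexes I, III and IV, but not complex II, pump protons across the inner mitochondrial membrane, and the ATP synthase uses that gradient to make ATP. Nearly all subunits are encoded in the nucleus, while the mitochondrial genome encodes a few, among them the catalytic subunits I and II of complex IV. Thyroid follicular cells take up iodide with the energy of the sodium gradient and oxidise it for hormone synthesis, and excess iodide is known to inhibit thyroid function.

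Promoter sequences are shown for Atp5po, Atp5mc3, Atp5me and Cox7b2. Atp5po and Atp5mc3 were among the members higher on every iodide array than on every control array, but neither passed the threshold given below. Atp5me and Cox7b2 differed between the receptor lines. All were chosen after their values were seen. The RefSeq table (build GRCr8) held a window for 82 of the 92 members, 72 of them subunits. Each sequence runs 5′ to 3′ on the gene's strand from 250 bases before the annotated start to 20 bases after it, and capitals mark a match to the binding motif of NRF1, a regulator of nuclear respiratory genes. The windows lie at chr11:44657464-44657733 (minus strand), chr3:79220645-79220914 (minus strand), chr14:1464610-1464879 (plus strand) and chr14:37046831-37047100 (plus strand).
Atp5po: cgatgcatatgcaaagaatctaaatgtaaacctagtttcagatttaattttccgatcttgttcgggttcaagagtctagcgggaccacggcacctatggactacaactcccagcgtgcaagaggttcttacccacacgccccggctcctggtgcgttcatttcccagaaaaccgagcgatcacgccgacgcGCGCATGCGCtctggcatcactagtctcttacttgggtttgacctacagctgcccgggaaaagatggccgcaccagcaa
Atp5mc3: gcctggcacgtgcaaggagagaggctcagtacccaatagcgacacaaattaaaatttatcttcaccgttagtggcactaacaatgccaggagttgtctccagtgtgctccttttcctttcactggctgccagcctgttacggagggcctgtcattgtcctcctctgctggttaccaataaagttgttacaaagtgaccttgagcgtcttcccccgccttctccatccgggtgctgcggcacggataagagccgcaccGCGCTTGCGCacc
Atp5me: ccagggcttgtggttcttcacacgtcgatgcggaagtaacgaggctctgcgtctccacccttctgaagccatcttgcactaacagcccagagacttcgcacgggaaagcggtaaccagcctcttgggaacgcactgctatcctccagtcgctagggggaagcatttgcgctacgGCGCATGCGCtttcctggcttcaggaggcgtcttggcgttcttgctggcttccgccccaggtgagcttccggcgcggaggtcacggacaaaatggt
Cox7b2: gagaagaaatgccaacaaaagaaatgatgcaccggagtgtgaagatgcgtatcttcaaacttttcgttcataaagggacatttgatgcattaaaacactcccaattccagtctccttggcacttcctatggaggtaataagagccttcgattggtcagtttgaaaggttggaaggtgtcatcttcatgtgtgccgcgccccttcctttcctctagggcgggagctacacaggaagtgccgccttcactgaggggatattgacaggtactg

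Windows of 300 bases, from 250 before to 50 after the start, were searched on both strands for NRF1 (GCGCA, any base, then GCGC), for the ETS motif that NRF2 binds (ACTTCCGG) and for YY1 (AA, any base, then ATGGCGGC). The NRF1 match of Atp5po lay at bases -59 to -50 from the start, that of Atp5me at -76 to -67 and that of Atp5mc3, on the other strand, at 8 to 17; Cox7b2 held none of the 3 motifs. Among the 72 subunit promoters, 13 held an NRF1 match (18.1%, against 4.71% of all 27457 promoters and 10.9% of those of the genes tested), 8 an ETS match (11.1%, against 4.01% and 8.99%) and 10 a YY1 match (13.9%, against 1.2% and 3.16%). The YY1 matches fell in 8 of 34 complex I promoters, in Sdhb and in Uqcrc1, and in none of the 13 of complex IV or the 15 of the ATP synthase. NRF1 matches were in 5 of the 15 ATP synthase promoters and in none of complex IV. Matches of different motifs did not overlap, and the 2 NRF1 matches of Ndufa11 overlapped each other. NRF1 matches stood before members with positive mean changes with iodide, such as Atp5po, and before some with negative ones, such as Ndufa5. Atp5f1e, Atp5f1a and Atp5f1b, which were also higher on every iodide array, held no NRF1 match. The sequences shown therefore do not stand for that group.

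The arrays reported MAS5 signals, linear intensities that had been brought to a common level (trimmed mean 500.2 on every array). Median signals were 118 to 127 on the WT arrays and 138 to 147 on the L629F arrays. Within groups, log2 signals of the 2 arrays had correlations of 0.971 to 0.981. Thyroid markers were high in all groups (8 of 8 above the filter, summed signal 45094 to 56393), while none of 4 C cell markers, 1 of 4 endothelial, 2 of 6 fibroblast and 4 of 8 leucocyte markers passed it. The summed leucocyte markers were 667 to 712 on iodide arrays and 579 to 657 on control arrays, without overlap. Ptprc, Cd68, Cd79b and Itgam were the leucocyte markers below the filter. The part of leucocyte markers in the results was not tested. The ratio of 3′ to 5′ GAPDH signal, a sign of RNA quality, was 1.40 to 3.13 with iodide and 1.22 to 2.17 without. That of beta-actin was larger, 3.66 to 9.15 with iodide and 2.23 to 7.90 without. WT iodide replicate 2 had the highest value of both ratios (3.13 and 9.15). No fit included the beta-actin ratio. In RNA from whole cultures, fewer cells of a kind and less RNA per cell cannot be told apart.

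Of the 92 members, 86 passed the filter on dim probe sets, which left out the lowest 40% by mean log2 signal over all 8 arrays (signals below 69.9). The 6 others were Cox4i2, Cox6a2, Cox6b2, Cox7a1, Cox8b and Ndufa4l2, isoforms known mainly from muscle, testis, lung or hypoxic cells. Their mean signals were between 16.5 (Cox8b) and 61.6 (Cox7a1), and on single arrays between 3.81 and 127. The common counterparts of 5 of them were well above the filter on every array: Cox4i1 between 13846 and 18048, Cox6a1 between 8776 and 11919, Cox6b1 between 10684 and 13504, Cox8a between 11664 and 17887, and Ndufa4 between 6012 and 10271. Of the 86 tested members, 66 lay in the brightest 10% of all genes tested (mean signal of at least 3424), 65 of them subunits.

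Changes are given as differences of log2(signal + 35.3), with the standard error of a limma fit over all 8 arrays and p-values adjusted by Benjamini-Hochberg over all 10047 genes tested, called at 0.05.

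The first question was what iodide did in each line and over both. With iodide, COX2 was the member that rose past the threshold. Most other subunits had small positive changes that did not pass it: averaged over both lines, 70 of the 86 members had a positive change, with a median of 0.15 (1.11-fold) against 0.01 over all genes tested, of which 52.2% were positive. By complex the medians were 0.11 for complex I, 0.16 for complex II, 0.18 for complex III, 0.21 for complex IV and 0.16 for the ATP synthase, and 0.04 for the genes that are no subunits. All 16 ATP synthase genes and all 4 of complex II had positive mean changes, as had 11 of 12 in complex IV, 7 of 8 in complex III and 25 of 35 in complex I, against 7 of the 11 others. On all 4 iodide arrays 13 members (15.1%) were higher than on all 4 chloride arrays, where 4.56% of all genes were, and none was lower on all 4, where 2.99% were. The medians shrank to near 0 under another scaling of the arrays, as described below.

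**Figure D1:**
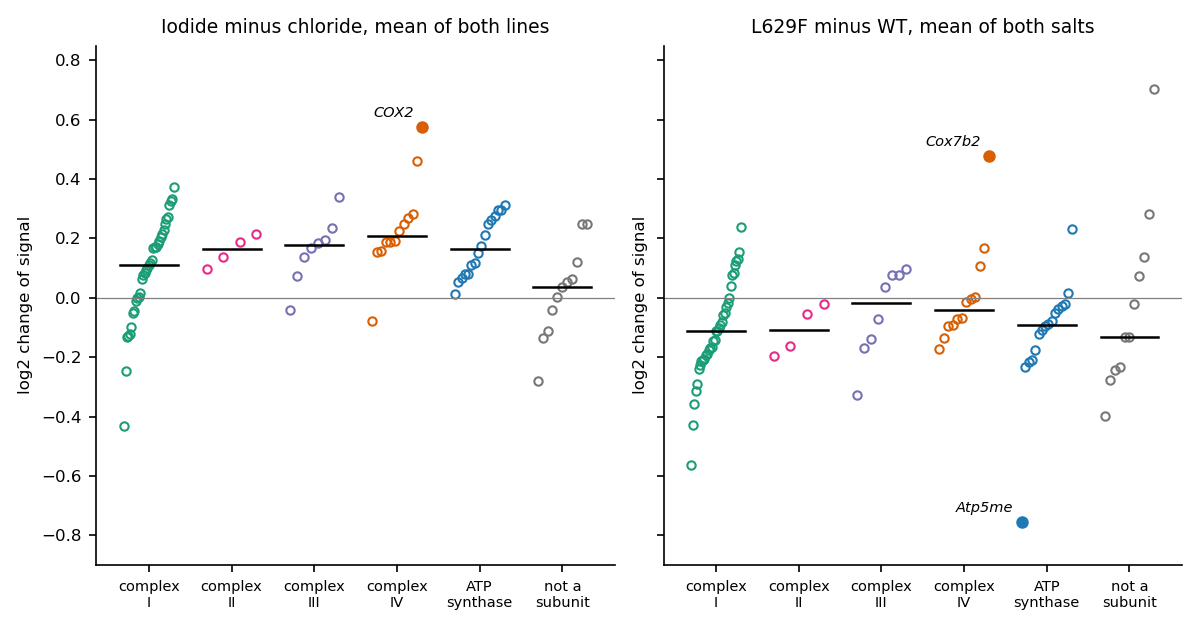
Each point is the log2 change of 1 tested gene, iodide minus chloride averaged over both lines (left) and L629F minus WT averaged over both salts (right), by complex, and the bar is the median of the complex; filled points passed an adjusted p of 0.05. On the left COX2 stands at 0.58 and the ATP synthase lies above 0; on the right Cox7b2 (0.48) and Atp5me (-0.76) passed, and the highest uncalled point is the dim pseudogene Cox6c-ps1.

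COX2 carries the binuclear copper centre that accepts electrons from cytochrome c. Its signals were 16942 and 19871 in WT cells with chloride and 26931 and 36019 with iodide. In L629F cells they were 20641 and 16654 with chloride and 23721 and 24869 with iodide. The iodide arrays were the higher ones in both lines, without overlap, and the WT cells given iodide held the highest 2 values. In WT cells COX2 rose by 0.76 ± 0.15 (1.70-fold; SE, n = 2 arrays a group; limma adjusted p = 0.0448), the only 1 of 86 members called there, where 0.458% of all genes were called in either direction and 0.0796% as higher. In L629F cells its change was 0.39 ± 0.15 (adjusted p = 0.524), and no member was called in a comparison that called 0.0896% of all genes; at an unadjusted p under 0.05, 9 members were above 0 (10.5%, where 3.73% of all genes were) and none below (where 4.45% were). Averaged over both lines COX2 rose by 0.58 ± 0.11 (1.49-fold, adjusted p = 0.0149), again as the only member among 1.6% of genes called, 0.518% as higher. Of the 8 fits that each left out 1 array, the call in WT cells held in that without WT iodide replicate 1 (adjusted p = 0.029) and, at the threshold itself, in that without L629F chloride replicate 1 (adjusted p = 0.05 as rounded), with changes of 0.55 to 0.97 over the 8. With the GAPDH ratio in the fit its change was 0.61 in WT cells, no longer called, and 0.46 on average, still called. The average call held in 3 of 8, those without L629F chloride replicate 1 or either WT iodide array, with changes of 0.47 to 0.68.

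COX1, the other mitochondrially encoded subunit of complex IV on the array and not among the members, holds the haem and copper site where oxygen is reduced. Its signals were 19343 and 19888 in WT cells with chloride, 24160 and 29910 with iodide, 21692 and 17474 in L629F cells with chloride, and 25588 and 24568 with iodide. Its iodide arrays lay above the control arrays in both lines. Averaged over both lines COX1 rose by 0.41 ± 0.09 (adjusted p = 0.0459), with 0.45 in WT and 0.36 in L629F cells. That call ended without WT chloride replicate 1 or 2, WT iodide replicate 2, L629F chloride replicate 2 or either L629F iodide array, with changes of 0.33 to 0.49 over the 8 fits. It also ended in 6 of the 13 other settings: no filter, quantile scaling, averaging a gene's probe sets, each probe set on its own, no intensity trend, and the GAPDH ratio in the fit (adjusted p between 0.0524 and 0.924). Both probe sets are among the brightest of the array, and quantile scaling took COX1 to 0.02 and COX2 to 0.22. The highest COX1 and COX2 signals were on WT iodide replicate 2, the array with the highest GAPDH and beta-actin ratios.

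**Figure D2:**
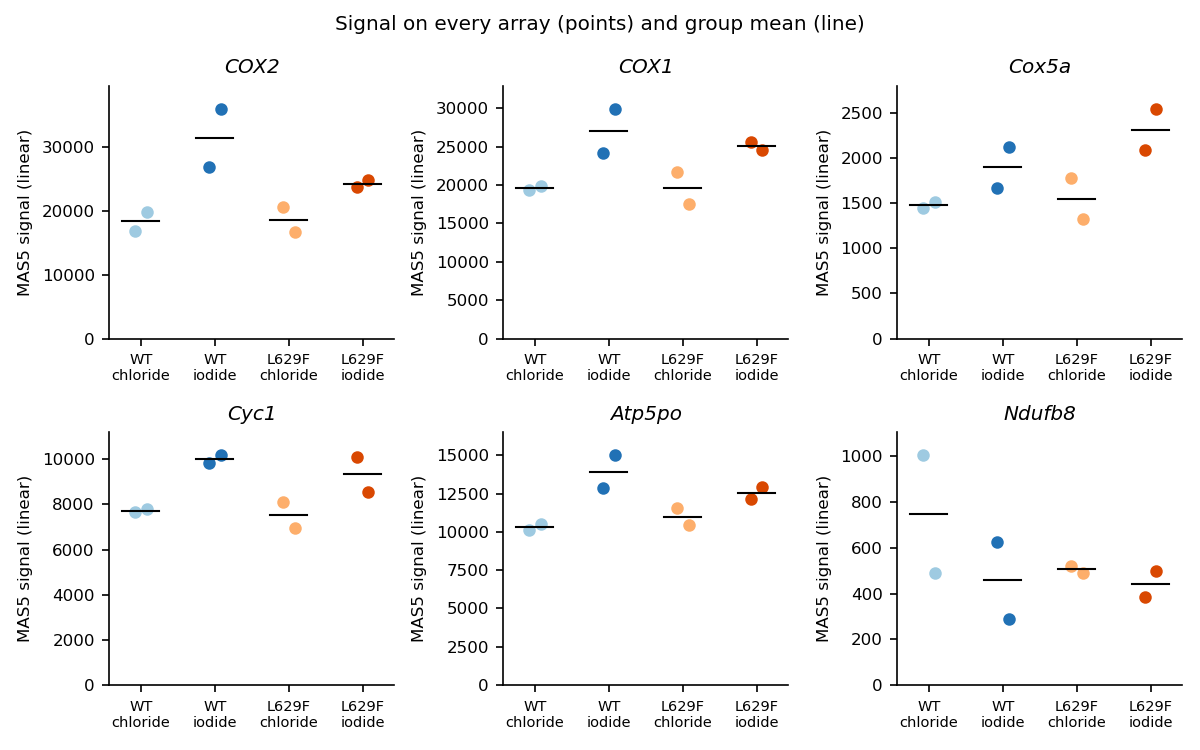
MAS5 signal (linear, from 0) on each of the 2 arrays of the 4 groups, with the group mean as a bar, for COX2, COX1, Cox5a, Cyc1, Atp5po and Ndufb8. COX2, COX1, Cyc1 and Atp5po lie higher on all 4 iodide arrays than on all 4 chloride arrays, while the 2 WT chloride arrays of Ndufb8 stand at 1004 and 491.

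Among the other nuclear subunits of complex IV, Cox5a, which forms part of the matrix face of the enzyme, had the largest positive change. Its signals were 1445 and 1513 in WT cells with chloride, 1672 and 2120 with iodide, 1773 and 1321 in L629F cells with chloride and 2085 and 2542 with iodide. The groups did not overlap within a line, but the higher L629F chloride array lay above the lower WT iodide array. Its change was 0.34 ± 0.18 in WT and 0.58 ± 0.18 in L629F cells and 0.46 ± 0.13 on average (adjusted p = 0.091). Cox6c, Cox7b and the regulatory subunit Cox4i1 were higher on all 4 iodide arrays than on all 4 chloride arrays, with average changes of 0.27 ± 0.09, 0.22 ± 0.09 and 0.19 ± 0.08, none of them called. Cox7b2, an isoform of Cox7b known from testis, had the only negative mean change of the 12 (-0.08 ± 0.10).

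In complex III, Cyc1, the membrane-anchored cytochrome c1, had signals of 7646 and 7790 in WT cells with chloride and 9839 and 10173 with iodide, and of 8111 and 6970 in L629F cells with chloride and 10104 and 8556 with iodide. All iodide arrays lay above all chloride arrays. Its average change was 0.34 ± 0.09 (adjusted p = 0.081), and it passed the threshold where arrays were centred on all probe sets (0.36, adjusted p = 0.0434). Uqcr10, a small supernumerary subunit, had a change of 0.19 ± 0.08, and Uqcrfs1, the Rieske iron-sulfur protein, one of -0.04 ± 0.09, the one negative mean change of the 8.

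The ATP synthase held 5 of the 13 members that were higher on every iodide array than on every chloride array. Atp5po, the stalk subunit that joins the catalytic head to the membrane part, had signals of 10129 and 10492 in WT cells with chloride, 12894 and 14999 with iodide, 11554 and 10445 in L629F cells with chloride and 12175 and 12957 with iodide. Its average change was the largest of the 16, 0.31 ± 0.08 (adjusted p = 0.087). Atp5f1e (0.30 ± 0.08), the ring subunit gene Atp5mc3 (0.30 ± 0.08), and the head subunits Atp5f1a (0.28 ± 0.10) and Atp5f1b (0.25 ± 0.09) were the others, with adjusted p between 0.0877 and 0.19. The lowest of the 16 was Atp5f1d at 0.01 ± 0.11, made of -0.22 ± 0.16 in WT and 0.25 ± 0.16 in L629F cells.

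Complex II, which is also an enzyme of the citric acid cycle, had small changes. The flavoprotein Sdha had a mean signal of 7572 ± 409 (SD, n = 2) in WT cells with chloride, 7898 ± 515 with iodide, 7099 ± 101 in L629F cells with chloride and 7811 ± 319 with iodide. The ranges of its WT groups overlapped and those of its L629F groups did not. Average changes were 0.10 ± 0.08 for Sdha, 0.14 ± 0.08 for the iron-sulfur subunit Sdhb, 0.19 ± 0.11 for the membrane anchor Sdhc and 0.22 ± 0.09 for the other anchor Sdhd, none called. A second, dimmer probe set of Sdhd gave -0.12.

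Complex I held both the widest spread and most of the negative changes. Ndufc1, an accessory subunit, had signals of 2922 and 3448 in WT cells with chloride and 4739 and 4958 with iodide, a change of 0.61 ± 0.18 (adjusted p = 0.194), while in L629F cells the pairs 3274 and 3978 and 3212 and 4922 overlapped (0.14 ± 0.18). Ndufb8 lay at the other end: its signals were 1004 and 491 in WT cells with chloride, 627 and 287 with iodide, 521 and 491 in L629F cells with chloride and 386 and 500 with iodide. The 2 WT arrays of each salt differed by more than the means of the salts, and the average change was -0.43 ± 0.24 (adjusted p = 0.427), with 0.00 once the GAPDH ratio was in the fit. Ndufa5, another accessory subunit, changed by -0.25 ± 0.14. Ndufab1, the mitochondrial acyl carrier protein (0.33 ± 0.10), Ndufb9 (0.31 ± 0.10) and Ndufa12 (0.23 ± 0.08) were the 3 members of complex I that were higher on all iodide arrays.

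The 6 nuclear-encoded core subunits of complex I that were tested had a median of -0.01 in WT and 0.19 in L629F cells. The 29 accessory subunits had one of 0.21 in WT and 0.07 in L629F cells. The largest change of a core subunit was that of Ndufv2 in L629F cells, 0.43 ± 0.19 (adjusted p = 0.599), against 0.10 ± 0.19 in WT cells. No member passed the test of the difference between the lines, in which no gene was called (0% of all genes); 1 member had an unadjusted p under 0.05, where 4.16% of all genes did. The median difference over the members, L629F minus WT, was -0.02, between -0.62 (Ndufs4) and 0.53 (Ndufaf8).

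The 2 lines share no array in these comparisons, and 56 of the 86 members had a positive change in both (65.1%), where 32.5% of all genes tested did, 7 a negative change in both (8.14%, against 28%) and 23 opposite changes. In WT cells the groups did not overlap and iodide was higher for 42 members (48.8%, against 23.7% of all genes), and lower for 9 (10.5%, against 19.6%). In L629F cells these counts were 31 (36%, against 20.2%) and 3 (3.49%, against 18.5%).

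Most members are bright, and bright genes as a whole had positive changes with iodide. Over the 1005 genes of the brightest 10% the median average change was 0.10 and 71.2% were positive, while over the 66 members among them the median was 0.18 and 60 were positive. In the other 9 classes of 10% by signal the medians lay between -0.06 and 0.03. The signal that the brightest 2% of probe sets exceed was 5942 to 6325 on iodide arrays and 5564 to 6022 on chloride arrays, with some overlap. The members made up 2.77% to 3.04% of the total signal of an iodide array and 2.58% to 2.82% of that of a chloride array.

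**Figure D3:**
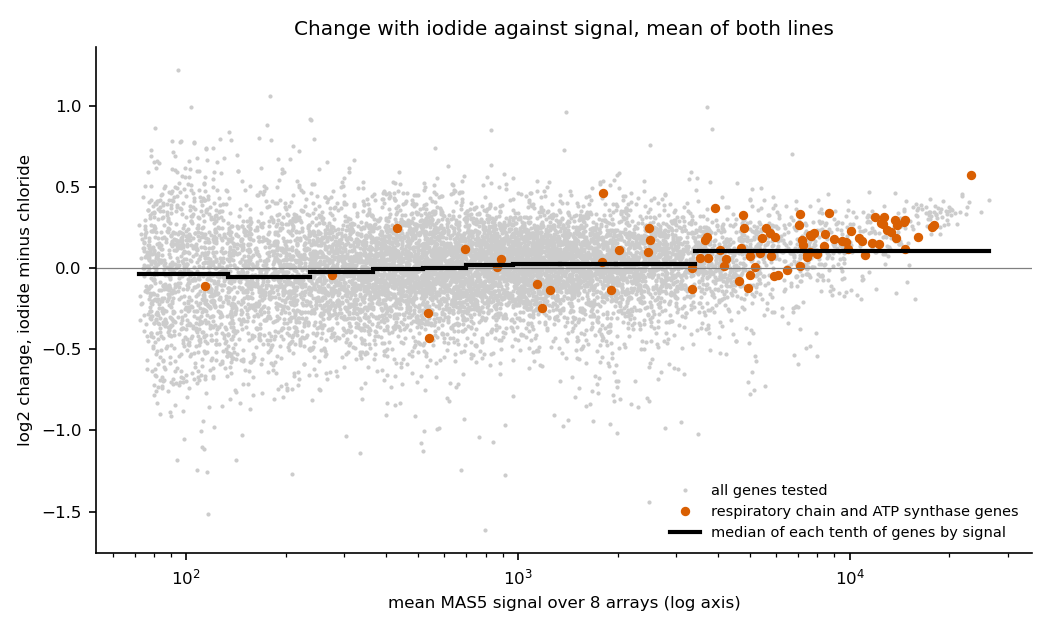
Log2 change, iodide minus chloride averaged over both lines, against the mean signal over the 8 arrays (log axis) for the genes tested (grey) and the respiratory chain and ATP synthase genes (orange); black bars are medians of all genes in 10 classes of equal size by signal. The members crowd at the bright end, where the median of all genes is 0.10, and COX2 is the topmost orange point.

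Scaling the arrays to equal quantiles, which removes such a shift of all bright genes, left a median of 0.04 over the members on average (0.03 in WT and 0.04 in L629F cells), with 54 of 86 positive (62.8%) in place of 70 (81.4%). In WT cells 48 members were positive (55.8%, in place of 73.3%) and in L629F cells 51 (59.3%, in place of 83.7%). Of all genes tested, 54% were positive in WT cells under quantile scaling, 51.6% in L629F cells and 52.9% on average. Under that scaling no member was called, and COX2 stood at 0.30 in WT cells and 0.22 on average. Centring each array on its median instead gave members' medians of 0.18. The direction of the members' median was kept under each scaling run, while its size was not. Under quantile scaling it was 0.0319 against 0.0253 over all genes in WT cells, so the members lay near the background there. It was 0.0385 against 0.0085 in L629F cells and 0.0369 against 0.0155 on average.

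**Figure D4:**
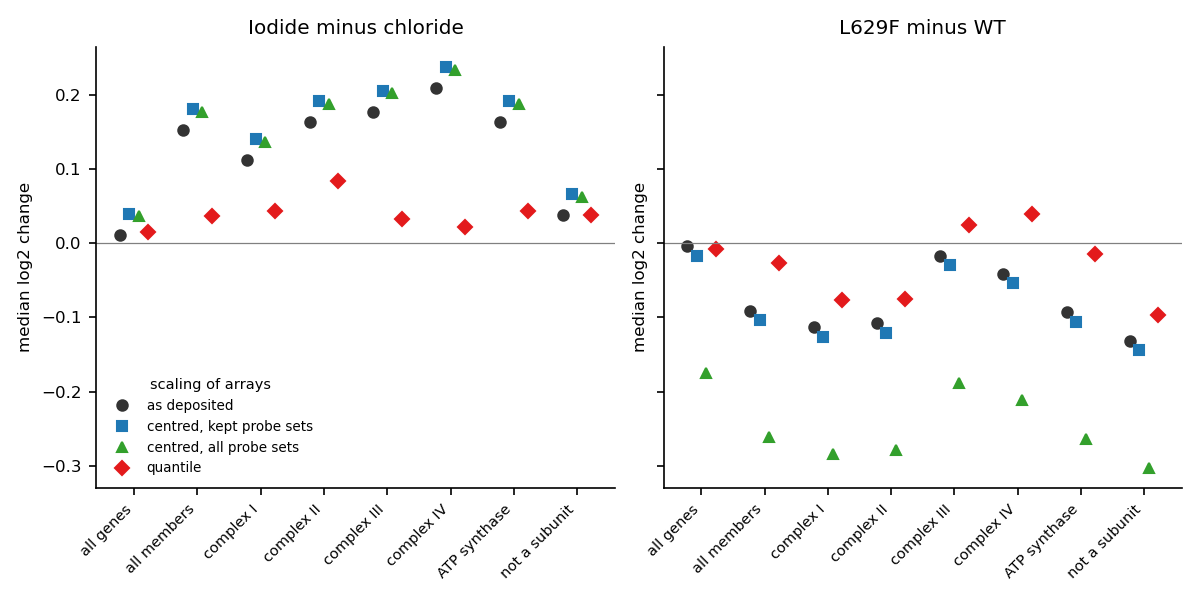
Median log2 change of all genes tested, of all members and of each complex under the deposited scaling, 2 kinds of median centring and quantile scaling, for iodide minus chloride (left) and L629F minus WT (right), each averaged over the other factor. On the left quantile scaling brings the members' median from 0.15 to 0.04; on the right centring on all probe sets brings the median of all genes to -0.17 and that of the members to -0.26.

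Of the 11 genes that are no subunits, 7 had a positive average change with iodide, from -0.28 ± 0.17 for Sdhaf3, which helps to mature Sdhb, to 0.25 ± 0.10 for Ndufaf4 and 0.25 ± 0.18 for Ndufaf5, none called. Other lists of mitochondrial genes stood beside the members as follows. The median average change with iodide was 0.07 over 40 assembly factors, a list that includes the Ndufaf and Sdhaf members. It was 0.03 over 19 regulators of mitochondrial biogenesis and 0.09 over 15 genes of the citric acid cycle and pyruvate dehydrogenase. Over 14 carriers and channels it was 0.09, and over 73 proteins of the mitochondrial ribosome 0.12. No gene of these 5 lists was called in any iodide comparison.

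The probe sets that list several genes, 1 of them with a member's prefix, numbered 9, and 8 of them had a positive average change with iodide (median 0.28). They name no gene here. Among the 6 tested members with a second probe set above the filter, Uqcrc2 (0.14 on its brighter and -0.44 on its dimmer probe set), Sdhd and Ndufv3 (-0.13 and 0.26) gave average changes of opposite sign.

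The second question was how the L629F line differed from the WT line. Averaged over both salts, Cox7b2 rose and Atp5me fell, and no other member was called, in a comparison that called 3.17% of all genes, 2.07% as higher and 1.09% as lower in L629F cells. The median change over the members was -0.09 (0.939-fold) against 0.00 over all genes. Of the 86 members 22 were positive (25.6%, where 49.4% of all genes were). Without iodide the median was -0.06 and with iodide -0.10; limma called no member in either, where it called 0.488% of all genes. At an unadjusted p under 0.05, 2 members were higher (2.33%, where 7.18% of all genes were) and 9 lower (10.5%, where 6.44% were) without iodide. With it 2 were higher (2.33%, where 6.52% were) and 7 lower (8.14%, where 5.6% were). In both directions together 12.8% of members and 13.6% of all genes passed without iodide, and 10.5% and 12.1% with it. By complex the average medians were -0.11 for complexes I and II, -0.02 for complex III, -0.04 for complex IV, -0.09 for the ATP synthase and -0.13 for the genes that are no subunits.

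Cox7b2 had signals of 3633 and 3956 in WT cells with chloride and 3570 and 4290 with iodide, and of 6149 and 5401 in L629F cells with chloride and 4675 and 5376 with iodide. All L629F arrays lay above all WT arrays, and the L629F chloride arrays were the highest 2. The average change was 0.48 ± 0.10 (1.39-fold, adjusted p = 0.0233), made of 0.60 ± 0.14 without iodide and 0.35 ± 0.14 with it, neither called alone. The call held in 4 of the 8 fits without 1 array and ended without WT chloride replicate 1 or 2, L629F chloride replicate 1 or L629F iodide replicate 2 (changes of 0.41 to 0.54). It also ended where arrays were centred on all probe sets (0.31) or no intensity trend was fitted, and held under quantile scaling (0.52). Its widely expressed counterpart Cox7b changed by -0.09 ± 0.09.

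Atp5me, a small membrane subunit of the ATP synthase that takes part in its dimers, had signals of 5467 and 5156 in WT cells with chloride and 7223 and 3657 with iodide. In L629F cells they were 2991 and 2846 with chloride and 3020 and 3490 with iodide. All L629F arrays lay below all WT arrays, the lower WT iodide array being the nearest to them. Atp5me fell by 0.76 ± 0.16 on average (0.592-fold, adjusted p = 0.0251), with -0.86 ± 0.23 without iodide and -0.66 ± 0.23 with it, neither called alone. The call held in 3 of the 8 fits without 1 array, those without either WT iodide array or L629F iodide replicate 2, and the change was -0.51 without WT iodide replicate 1 and -1.0 without WT iodide replicate 2. The call also ended with no filter or no intensity trend. A second Atp5me probe set was too dim to be tested (mean signal 65.8) and went the other way, by 0.82 on average. Its signals were 6.99 to 83.2 on WT arrays and 76.5 to 104 on L629F arrays, with some overlap.

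Of the members not called, Ndufa5 came nearest. Its signals were 1814 and 1384 in WT cells with chloride, 1366 and 1103 with iodide, 1164 and 823 in L629F cells with chloride and 817 and 966 with iodide. The lines did not overlap with chloride or with iodide taken alone, but the highest L629F value lay above the lowest WT value over both salts. Its average change was -0.56 ± 0.14 (adjusted p = 0.0511). Ndufa4, grouped here by its symbol with complex I although it is found in complex IV, had a change of -0.36 ± 0.10 (adjusted p = 0.084), Uqcr11 one of -0.33 ± 0.09 (adjusted p = 0.0731) and Ndufb2 one of -0.31 ± 0.09 (adjusted p = 0.064).

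**Figure D5:**
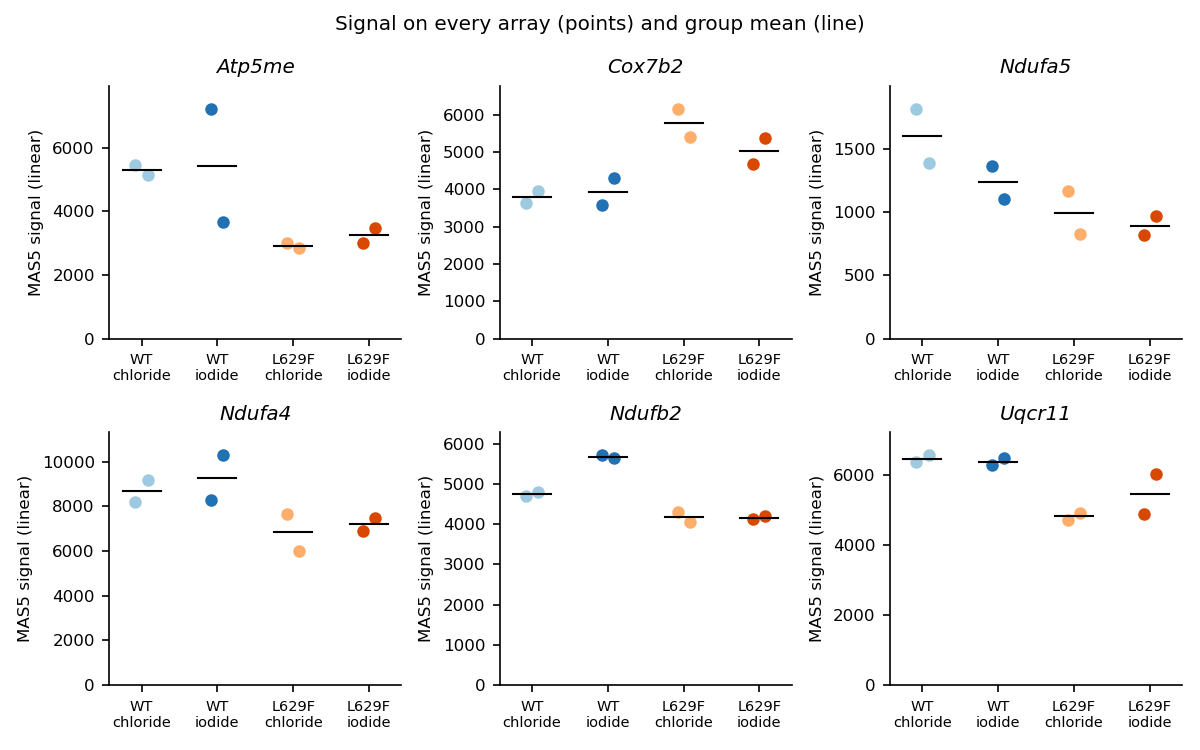
MAS5 signal (linear, from 0) on each of the 2 arrays of the 4 groups, with the group mean as a bar, for Atp5me, Cox7b2, Ndufa5, Ndufa4, Ndufb2 and Uqcr11. Cox7b2 is higher and Atp5me, Ndufa4, Ndufb2 and Uqcr11 are lower on all 4 L629F arrays than on all 4 WT arrays; the 2 WT iodide arrays of Atp5me stand at 7223 and 3657.

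Over both salts, 6 members were lower on all 4 L629F arrays (6.98%, where 4.66% of all genes were): Atp5me, Ndufa4, Ndufb2, Ndufb11, the flavin-binding core subunit Ndufv1 and Uqcr11. Only Cox7b2 and the pseudogene Cox6c-ps1 were higher on all 4 (2.33%, where 5.7% of all genes were). Cox6c-ps1 was the tested member nearest to the filter, with signals of 58.8 to 102 on WT and 117 to 177 on L629F arrays, and its change of 0.70 ± 0.25 was not called (adjusted p = 0.136). Without iodide the lines did not overlap for 8 members higher in L629F cells (9.3%, against 24.8% of all genes) and 25 lower (29.1%, against 23%). With iodide these counts were 6 (6.98%, against 19.8%) and 24 (27.9%, against 20.7%). Where a tested member had a second probe set above the filter, the sign of the receptor average could differ. The brighter and the dimmer probe set gave -0.18 and 0.20 for Atp5if1 and -0.13 and 0.47 for Ndufaf7. For Ndufv3 they gave -0.19 and 0.17, and for Uqcrc2 0.08 and -0.12. Both were negative for Ndufa7 and Sdhd.

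The median array signal was higher in the L629F line, and the change of all genes with the receptor ran with brightness, from a median of 0.28 in the dimmest 10% to -0.06 in the brightest 10%, where the 66 members had a median of -0.09. Centring on the median of all probe sets moved the median of all genes to -0.17 and that of the members to -0.26, with 5 of 86 positive (5.81%, in place of 25.6%) and 26 members called, all lower (30.2%). That centring shifts every gene down in L629F cells and called 12.2% of all genes as lower. Under quantile scaling the members' median was -0.03 against -0.01 over all genes, with 35 members positive (40.7%, where 48.8% of all genes were). Cox7b2 and Atp5me were the 2 called, where 1.98% of all genes were called as higher and 0.896% as lower. Atp5me fell under each of these scalings and Cox7b2 was positive under each. From the lists of related genes, Mrps18b (-0.45 ± 0.10, adjusted p = 0.0369) and Mrps35 (-0.57 ± 0.12, adjusted p = 0.021), proteins of the small subunit of the mitochondrial ribosome, fell with the L629F receptor averaged over both salts, and no other gene of those lists was called in a receptor comparison. Of the 8 fits without 1 array, the call of Mrps18b held only in that without WT iodide replicate 1 (adjusted p up to 0.141, changes of -0.49 to -0.41), and that of Mrps35 in those without WT iodide replicate 1 or L629F iodide replicate 2 (adjusted p up to 0.108, changes of -0.64 to -0.51). Both calls also ended without an intensity trend in the fit, and that of Mrps18b under quantile scaling or with each probe set tested on its own.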

How the data were processed

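Total RNA was hybridised to single-colour Affymetrix rat arrays, and the deposited values are linear intensities (signals) that the authors computed for each probe set with MAS5, per the submitters' processing notes; the version and scaling target were not given in the labels or files. Of 31099 probe sets, 57 controls were left out, and 20826 carried a single symbol, 436 several and 9831 none in the platform table. The pseudocount of 35.3 is the 25th percentile of all signals. The lowest 40% by mean log2 signal were left out (18631 probe sets kept), the brightest probe set stood for a gene, and limma 3.58.1 in R 4.3.3 (lmFit, eBayes with an intensity trend) was fitted with 1 coefficient per group and no block (4 residual and 9.43 prior degrees of freedom). Tests were two-sided. The fit was tried on simulated data with independent noise whose spread was taken from these arrays. Such data hold no replicate, scaling or RNA quality effect, so the p-values were not checked against those. The number of arrays limits the precision: the median standard error over all genes was 0.20 within a line and 0.14 for the averages. Named genes were the members called, the 3 largest rises and falls of a comparison, the brightest of a complex, COX2, Cyc1, the Sdh genes and isoform pairs; those named for lying apart on all 4 arrays were chosen after their values were seen. Members and lists were chosen with earlier results of these data known. Counts and medians describe the members and are no test of them as a set. Same-numbered arrays deviated together with correlations of 0.043 to 0.226, not all over 0.1, so numbers were not taken to pair samples. The GAPDH ratio was, however, higher on replicate 2 than on replicate 1 in each group. With chloride replicates 1 and 2 had 1.22 and 1.55 in WT and 1.54 and 2.17 in L629F cells. With iodide they had 1.40 and 3.13 in WT and 2.27 and 2.49 in L629F cells. Counts from a fit with the replicate number as a block are given below. Alternatives covered the filter, the pseudocount, scaling, probe set choice, variance model, arrays in the fit, the GAPDH ratio, the threshold and each array left out.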

Additional observations from a re-analysis of the deposited data

Results flagged for a closer look

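In 2 of the named genes all arrays of a line moved with iodide in the direction opposite to the other line, and neither passed the test of that difference (limma adjusted p = 0.993 for each). They were the members with the lowest and the highest difference, and such extremes were named for that reason. Separation within a line was common: in WT cells iodide was higher without overlap for 23.7% of all genes and lower for 19.6%. In L629F cells these shares were 20.2% and 18.5%. The share of all genes separated in opposite directions was not counted, so the 2 genes are no result about the members. Ndufs4, an accessory subunit of complex I, changed by 0.21 ± 0.21 with iodide in WT and by -0.41 ± 0.21 in L629F cells, a difference of -0.62; its signals in L629F cells were 1783 and 1054 with chloride and 1044 and 1003 with iodide, so the fall rests on 1 chloride array. Ndufaf8, an assembly factor of complex I, changed by -0.26 ± 0.16 in WT and 0.27 ± 0.16 in L629F cells, a difference of 0.53. The same 8 values of Ndufaf8 read across receptors gave -0.19 without and 0.34 with iodide, again a difference of 0.53. Groups of 2 arrays are too small for a search for outlying arrays.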

How the results depend on the processing

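Leaving out 1 array leaves its group with a lone array, assumed to vary like the others. Counts of members called ranged over these 8 fits from 0 to 1 for iodide in WT cells, from 0 to 5 for the iodide average, from 0 to 3 for the receptor average and from 0 to 1 for the receptor without and with iodide. In WT cells the COX2 call was lost (0 called) with no filter, a pseudocount of 1, quantile scaling, averaging a gene's probe sets, testing each probe set on its own, no intensity trend, the GAPDH ratio as a covariate or only the 4 arrays compared. For the iodide average 0 members were called with no filter, no intensity trend or quantile scaling, 2 with the GAPDH ratio or centring on all probe sets, and 6 at an adjusted p under 0.1. For the receptor average the count was 0 with no intensity trend, 1 with no filter, 7 with the GAPDH ratio, 6 at 0.1 and 26 with centring on all probe sets. For the receptor without iodide it was 1 at 0.1, with only the arrays compared or with quantile scaling, and with iodide 1 with centring on all probe sets. With the replicate number as a block, not used in the main fit, the counts were 2 for iodide in WT cells and 9 for its average. They were 3 for the receptor without iodide, 1 with iodide and 7 for the average, and 0 in the L629F and difference comparisons. A setting can change the calls over the whole array. The shares of all genes called under most of these settings are not given here, so the counts are no result about the members. Medians of the members moved by more than the spread between arrays of a group (0.083) under quantile scaling for iodide (0.0319 in WT cells, 0.0385 in L629F cells, 0.0369 on average) and under centring on all probe sets for the receptor (-0.22 without iodide, -0.28 with it, -0.26 on average); the other 138 medians did not. Of the changes of named genes 3 reversed, none of them called: Sdhaf3 (0.0118) and Ndufb8 (0.0034) in the iodide average with the GAPDH ratio in the fit, and Ndufb8 in the difference between lines, from -0.0276 without WT iodide replicate 2 to 1.01 without WT iodide replicate 1. The causes were not tested. Signals near background limit the 6 isoforms left out as dim.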
